A study of Mus musculus with 12 samples.

Results

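Interferon response and antigen presentation genes were examined in bulk RNA of mouse cerebella from 2 genotypes. The set holds 39 of the 18394 genes of the deposited count table. They were chosen by name as interferon-induced or MHC class I genes, with earlier results of these data known. All 39 were in the table and all 39 passed the filter on low counts that left 15467 genes for testing. The 12 libraries come from 6 wild-type (WT) cerebella and 6 cerebella whose label names a Crfr1 knockout and the Cre line deltaalpha6 (cKO). Crhr1 is the current symbol of Crfr1, which encodes a receptor for corticotropin-releasing factor. The α6 in the name of the Cre line is that of Gabra6, a GABA-A receptor subunit gene typical of cerebellar granule cells. The labels give no age, sex, strain or litter for either group and name no group with the driver alone. Effects of the receptor, of the Cre line and of linked DNA therefore cannot be told apart. No label says that the libraries of a genotype come from separate litters, so p-values measure the spread between these samples only.

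Interferons are secreted when cells detect viral nucleic acid or other danger signals. Type I interferon acts through its receptor and the kinases Jak1 and Tyk2 to activate a transcription factor complex that holds Stat2 and Irf9 and binds the interferon-stimulated response element in the promoters of its target genes. The targets include RNA sensors, proteins that block viral replication, GTPases that attack intracellular pathogens, and the machinery that loads peptides on MHC class I. In brain tissue the basal level of these genes is low, and microglia and endothelial cells are among the cells that respond strongly. In a whole cerebellum, more cells of a responding type and more RNA per cell cannot be told apart.

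The libraries held 23.8 M to 62.1 M counts (M for mega), and each library held between 12160 and 32360 counts of the 39 members together. The unit of level below is CPM, a gene's count divided by its TMM-scaled library size in M. Counts of single members ran from 18, for Isg15 in its lowest library, to 10867, for Stat2 in its highest. Markers of granule cells and Purkinje cells were abundant in every library, with Cbln3 at 1774 CPM or more and Itpr1 at 3824 CPM or more, as fits the labelled tissue. Itgal, an integrin of leukocytes, fell from 2.41 ± 0.29 CPM in WT to 1.32 ± 0.21 in cKO (SD, n = 6; edgeR adjusted p = 0.00029), and the other 6 tested markers of infiltrating myeloid cells did not pass. The T cell genes Cd3e, Cd3d, Cd3g and Cd8a had at most 4 counts in any library, and Nkg7, of cytotoxic cells, had its highest count, 13, in cKO replicate 2. Cd4 and Lck, of the same marker list, had counts in every library, from 4 to 20 and from 3 to 20.

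Divided by the exon length of each gene, the members spanned a wide range of basal levels. B2m, the light chain shared by all MHC class I molecules, was the highest at a median of 76.2 CPM per kb over the 12 libraries. Stat2 followed at 28.2 CPM per kb, then the class I heavy chain gene H2-D1 at 12.4, Ifi27 at 10.7 and Ifitm3 at 9.94. Nlrc5, the transactivator of class I genes, was the lowest at 0.188 CPM per kb, and the immunoproteasome subunit Psmb9 was next at 0.266.

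The genotypes differed in 1 of the 39 members. Xaf1, an interferon-induced gene that encodes a partner of the apoptosis inhibitor XIAP, rose 2.26-fold in cKO cerebella. The other 38 members did not pass the test. In the background of all tested genes, 1.27% were called higher, 1.38% lower and 2.64% in either direction, so 1 call among 39 members (2.56%) is near the background. Of the 39 log2 fold changes 26 were positive and 13 negative, with a median of 0.05, against 49.8% positive and a median of 0.00 over all tested genes. An unadjusted p under 0.05 was found for 2 members, Xaf1 and Irf9, and for 14.2% of all tested genes.

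Xaf1 lies on chromosome 11 (72301629 to 72313733, mm10), 30 Mb from Gabra6 and 31.8 Mb from Crhr1. Its level in the WT libraries was 3.52 CPM in the lowest, 4.36 at the median and 8.57 in the highest. In the cKO libraries it was 8.58 CPM in the lowest, 10.4 at the median and 20.8 in the highest. The groups did not overlap, but WT replicate 6 at 8.57 and cKO replicate 5 at 8.58 CPM lay next to each other. All cKO libraries lay above all WT libraries in 0.95% of tested genes. Mean levels of 4.96 ± 1.84 and 11.75 ± 4.53 CPM (SD, n = 6 in both genotypes) gave a log2 fold change of 1.18 (SE 0.22, 95% interval 0.71 to 1.64, edgeR adjusted p = 0.00487). The call was kept whichever of the 12 libraries was omitted, with log2 fold changes between 0.94 (without cKO replicate 2) and 1.47 (without WT replicate 6). With 3 surrogate variables as covariates the log2 fold change was 0.78 (SE 0.24) and the call was lost (edgeR adjusted p = 0.25). The 6 other members on chromosome 11 (Irf1, Igtp, Trim25, Dhx58, Ifi35 and Lgals3bp) did not pass, among them Ifi35 and Dhx58, which lie 2.7 and 3.4 Mb from Crhr1. The genotype label does not say where the Cre sequence lies, which need not be at Gabra6. Whether linked DNA has a part in the Xaf1 difference was not tested.

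Irf9, the DNA-binding subunit of the complex with Stat2, lay just outside the threshold. Its WT libraries ran from 21.6 to 26.0 CPM with a median of 22.02, and its cKO libraries from 23.7 to 28.3 with a median of 25.4. All cKO libraries were above 5 of the 6 WT libraries, and WT replicate 2 lay inside the cKO range. Mean levels of 22.7 ± 1.64 and 25.8 ± 1.94 CPM (SD, n = 6 in both genotypes) gave a log2 fold change of 0.19 (SE 0.05, edgeR adjusted p = 0.0584). Irf9 passed without WT replicate 2 (log2 fold change 0.23, SE 0.05, edgeR adjusted p = 0.0117), without cKO replicate 5 (adjusted p = 0.0285), without cKO replicate 6 (adjusted p = 0.0372) and in DESeq2 (adjusted p = 0.0167). The authors' deposited table also lists 2 members with an adjusted p under 0.05, Xaf1 (0.00129) and Irf9 (0.0175). The log2 fold change of Xaf1 in the authors' deposited table is 0.13 (SE 0.03), far smaller than the 1.18 found here, and that of Irf9 is 0.15 (SE 0.04). The deposited SEs are also far smaller for members with few counts, at 0.03 for Isg15 against 0.26 here. For the abundant Stat2 the deposited log2 fold change is −0.027 (SE 0.028), against −0.030 (SE 0.029) here. That of H2-D1 is −0.017 against −0.019 here. The deposited values thus do not differ from those here by the same factor for every gene, and the sizes cannot be compared directly. Irf9 shares 123 exonic bases with the neighbouring gene Rnf31 on the same strand, whose own log2 fold change was 0.02 (SE 0.04, edgeR adjusted p = 0.91).

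The other transcription factors among the members did not pass. Stat2 averaged 168 ± 3.86 CPM in the WT and 165 ± 7.78 CPM in the cKO libraries (SD over 6 of each), a log2 fold change of −0.03 (SE 0.03). The master regulator Irf7 had a log2 fold change of 0.19 (SE 0.22), and Irf1 of 0.06 (SE 0.08). The 95% interval of the log2 fold change lay within a 1.5-fold change in either direction for 34 of the 39 members. The exceptions were Xaf1, Irf7, Isg15, Usp18 and Psmb9.

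**Figure D1:**
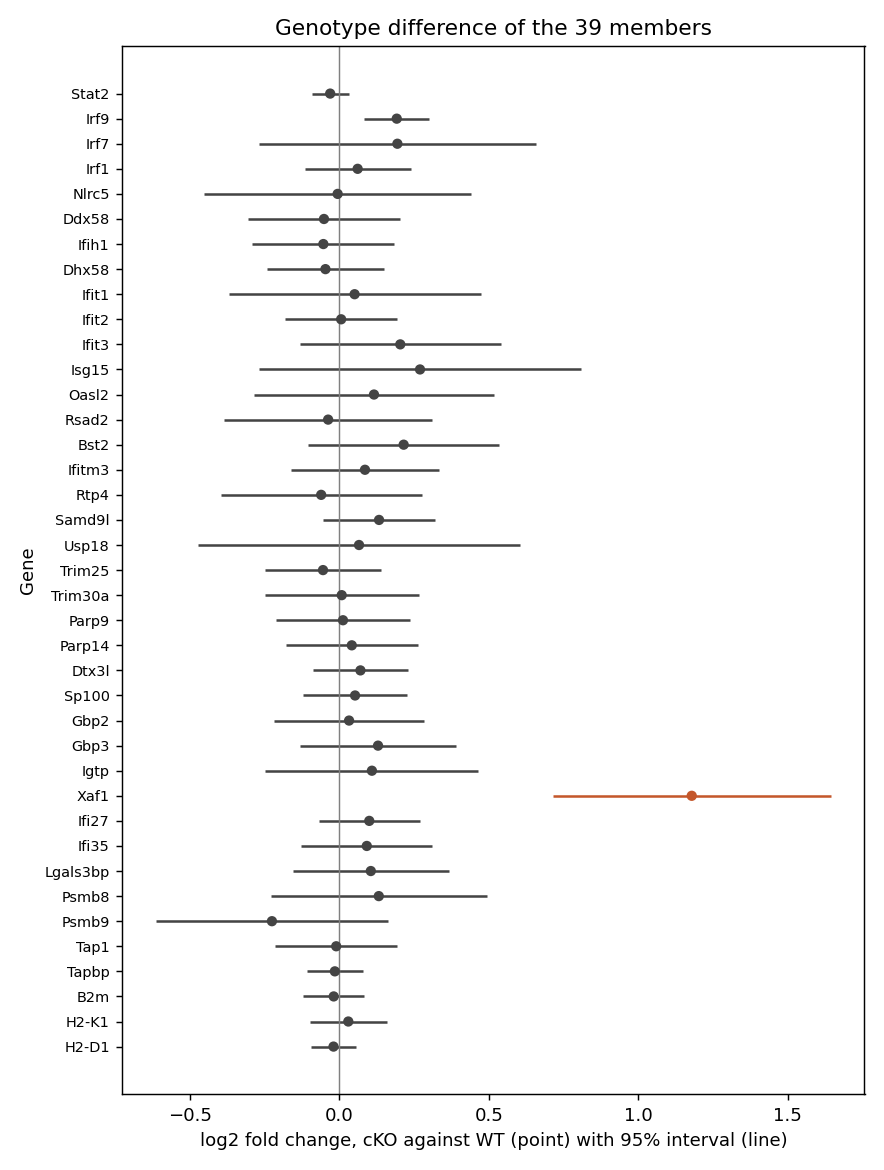
Log2 fold change of each of the 39 members in cKO against WT cerebella on the horizontal axis (point) with its 95% interval (line), genes listed on the vertical axis by role. Xaf1, in orange, is the only member that passed the test, at 1.18, and the interval of Irf9 (0.08 to 0.30) lies above 0 without an adjusted p under 0.05.

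A second pattern ran across libraries of both genotypes. WT replicate 2 and cKO replicate 2 were each the highest library of their genotype for most members. For 29 of the 39 members these 2 libraries were the 2 highest of all 12, which was true of 2.7% of all tested genes. WT replicate 2 was the highest WT library for 32 members, and cKO replicate 2 was the highest cKO library for 36. Over all tested genes these shares were 17.8% and 18.3%. Both held for 30 members and for 4.91% of all tested genes. Both libraries were singled out after the values of all 12 had been seen, so no test is given for them. The members were also chosen with earlier results of these data known, so their share may overstate that of interferon-induced genes in general. Among 60 other tested interferon-induced genes, from a list chosen under the same condition, these libraries were the 2 highest for 24 (40%).

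Another description uses, for each library, the median over the 39 members of the log2 level minus that gene's median over all libraries. It was 0.43 in cKO replicate 2 and 0.30 in WT replicate 2. The next highest was cKO replicate 3 at 0.10, and the other 9 libraries lay between −0.09 and 0.00. The same median over all tested genes stayed within 0.0014 of 0 in every library, where the scaling of the libraries and the centring of each gene hold it. In each of the 2 high libraries 37 of 39 members lay above their own median. The 2 libraries were not extreme in depth, at 28.6 M and 43.1 M counts. In the order of deposit, cKO replicate 2, cKO replicate 3 and WT replicate 2 directly follow one another. Replicate numbers were given within each genotype, so the shared number 2 does not pair the libraries. The labels do not say what the order reflects, and its part in the pattern was not tested.

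**Figure D2:**
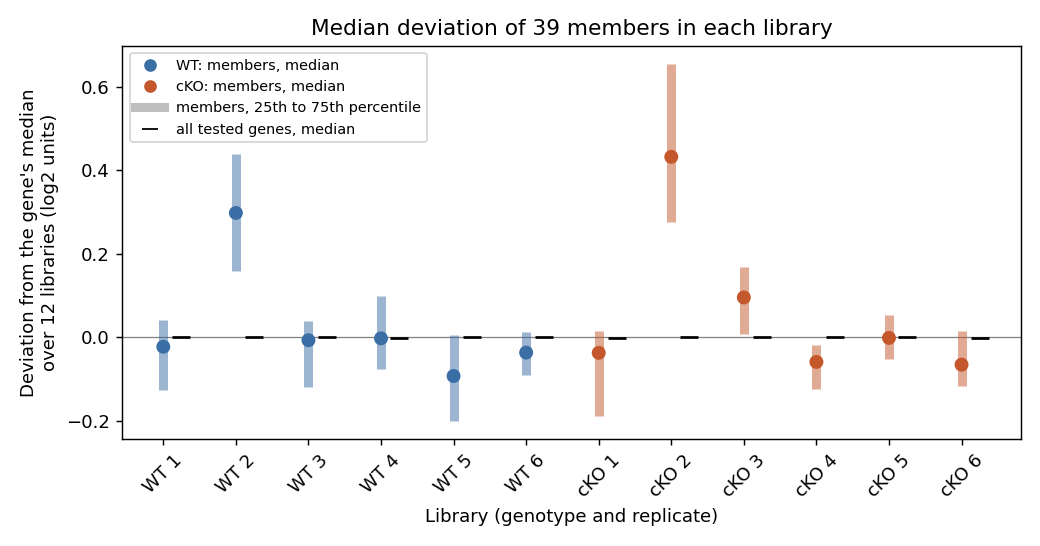
For each library on the horizontal axis, the median (circle) and the 25th to 75th percentile (bar) over 39 members of the log2(CPM + 0.5) level minus the gene's median over 12 libraries, with the median over all tested genes as a black dash. WT replicate 2 at 0.30 and cKO replicate 2 at 0.43 stand above the other 10 libraries. All tested genes stay near 0, where the scaling and centring hold them.

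**Figure D3:**
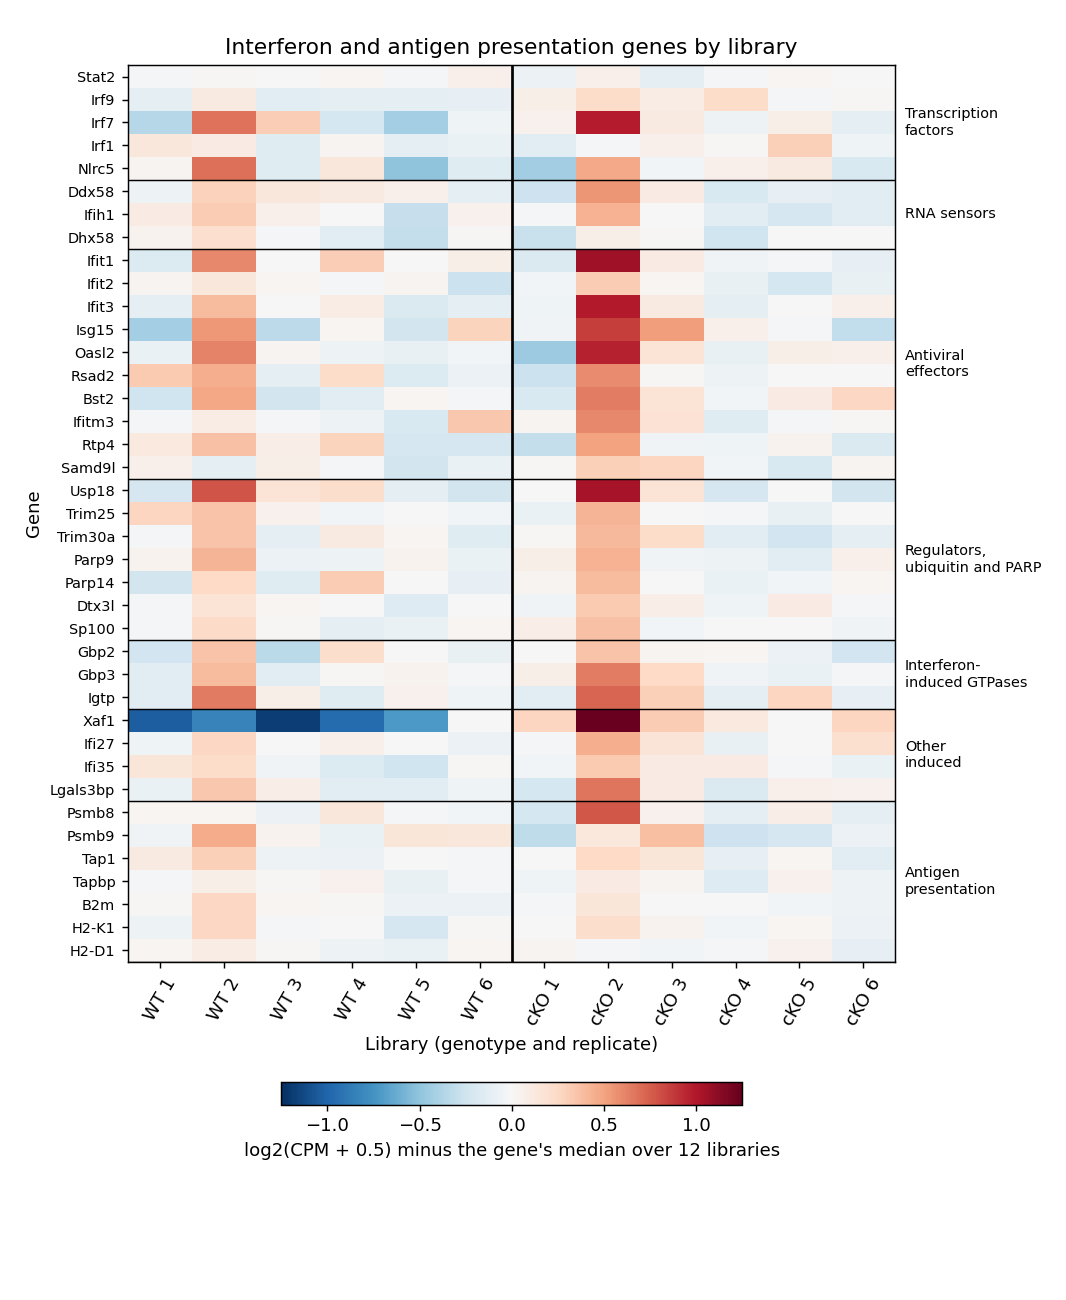
Deviation of each member (rows, grouped by role) from its own median over 12 libraries (columns, genotype and replicate), in log2 units, red above and blue below. The columns WT 2 and cKO 2 are red across nearly all roles, and the row of Xaf1 has the largest difference between the genotypes.

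The size of the difference was described by the ratio of each high library to the median of the other 5 libraries of its genotype. Over the 39 members the median ratio was 1.27 in WT replicate 2 and 1.43 in cKO replicate 2, and 27 members had the larger ratio in cKO replicate 2. Ratios over 1.5 were found for 10 members in WT replicate 2 and for 18 in cKO replicate 2. Ratios over 2 were found for 4 members in WT replicate 2 (Usp18, Isg15, Nlrc5 and Irf7) and for 7 in cKO replicate 2 (Usp18, Ifit1, Isg15, Psmb8, Irf7, Ifit3 and Xaf1). The shares of all tested genes over these ratios in each library were not computed, so how unusual the counts are is not known. Isg15, Nlrc5, Psmb8 and Usp18 averaged only 1.35 to 1.97 CPM, a level at which counting noise widens ratios.

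Among the transcription factors, Irf7 and Nlrc5 followed this pattern, while Stat2, Irf9 and Irf1 did not, Irf9 because cKO replicate 4 at 28.1 CPM lay above WT replicate 2. Irf7, which amplifies the interferon response, measured 5.09 CPM in WT replicate 2 against 2.11 to 3.84 in the other WT libraries, and 6.41 in cKO replicate 2 against 2.71 to 3.29 in the other cKO libraries. Nlrc5 measured 2.86 CPM in WT replicate 2 against at most 1.81 in the other WT libraries, and 2.41 in cKO replicate 2 against at most 1.76. Stat2 was nearly level, with ratios of 1.01 and 1.06. Irf1, which responds mainly to type II interferon, had ratios of 0.979 in cKO replicate 2 and 1.150 in WT replicate 2, and its highest library was cKO replicate 5 at 5.90 CPM.

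All 3 RNA sensors were highest in the same 2 libraries. Ddx58 encodes RIG-I, which detects viral RNA with a 5′ triphosphate, and measured 8.76 CPM in WT replicate 2 and 10.6 in cKO replicate 2, against medians of 7.43 and 6.43 in the other libraries of each genotype. Ifih1, which encodes the long double-stranded RNA sensor MDA5, measured 7.12 and 7.75 CPM against medians of 5.83 and 5.05. Dhx58, encoding the regulatory relative LGP2, had smaller ratios of 1.19 and 1.07.

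Of the 10 antiviral effector genes 8 were highest in these 2 libraries, with median ratios of 1.49 and 1.62. Ifit1 encodes a protein that binds viral RNA and measured 6.28 CPM in WT replicate 2 and 8.77 in cKO replicate 2, and in the other 10 libraries between 3.43 and 5.002. Ifit3, a partner of Ifit1, ran from 13.7 to 16.7 CPM in the other WT libraries and from 14.3 to 16.99 in the other cKO libraries, with 20.7 in WT replicate 2 and 31.6 in cKO replicate 2. Its near-identical copy Ifit3b, with which it could share reads, showed 10.2 and 15.1 CPM in these 2 libraries against at most 8.52 in the rest. Ifit2, of the same family, had smaller ratios of 1.09 and 1.35. Isg15, the ubiquitin-like modifier of the response, measured 1.95 CPM in WT replicate 2 and 2.57 in cKO replicate 2. Isg15 was the member with the lowest counts in a library, and cKO replicate 3 came close to the WT value at 1.93 CPM.

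Oasl2, a relative of the 2′-5′ oligoadenylate synthetases, measured 8.76 and 11.2 CPM in the 2 libraries against at most 5.63 in the other WT and 6.25 in the other cKO libraries. Bst2 encodes tetherin, which holds budding virus at the cell surface, and measured 4.26 and 4.79 CPM against at most 2.96 and 3.56. Rsad2, encoding the antiviral enzyme viperin, had ratios of 1.55 and 1.64, and Rtp4 had ratios of 1.27 and 1.59. The 2 exceptions were Ifitm3 and Samd9l. Ifitm3, which blocks virus entry, was highest in cKO replicate 2 at 10.5 CPM, but WT replicate 6 at 8.65 lay above WT replicate 2 at 7.22. Samd9l was highest in cKO replicate 2 at 7.17 CPM, with WT replicate 2 at 5.27 below the median of the other WT libraries.

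**Figure D4:**
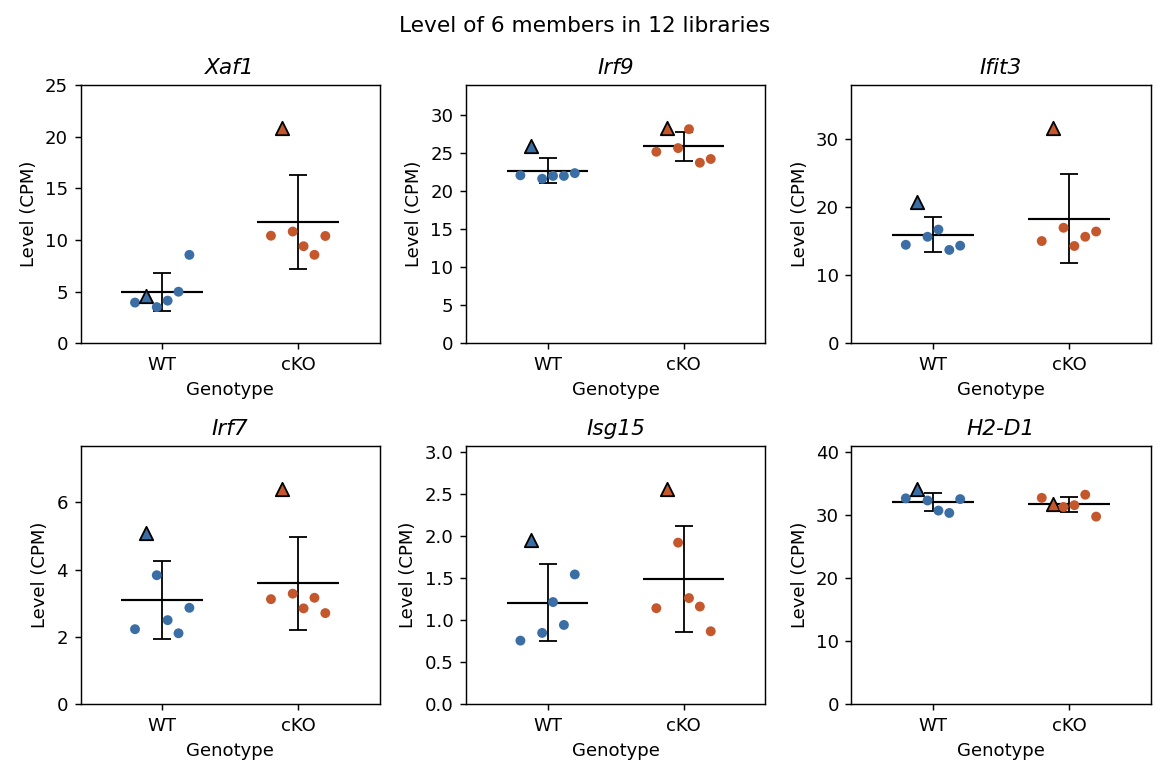
Level in CPM (vertical axis, from 0) of 6 members in each of 6 WT (blue) and 6 cKO (orange) libraries, with the mean and SD in black and replicate 2 of each genotype as an outlined triangle. Xaf1 separates the genotypes, with WT replicate 2 inside the WT range, whereas Ifit3, Irf7 and Isg15 are highest in both triangles and H2-D1 is nearly flat.

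Genes that modify proteins in the response followed, with 6 of 7 highest in the 2 libraries. Usp18, the protease that removes Isg15 from proteins and damps the receptor, had the largest ratio of all members in both libraries, 2.17 and 2.36. It measured 3.28 CPM in WT replicate 2 against at most 2.04 in the other WT libraries, and 3.96 in cKO replicate 2 against at most 1.96 in the other cKO libraries. Trim25, the ubiquitin ligase that acts on RIG-I, had ratios of 1.29 and 1.38, and Trim30a of 1.33 and 1.49. The ADP-ribosylation genes Parp9 and Parp14 had ratios of 1.44 and 1.43 and of 1.31 and 1.35. Parp14 was the exception because WT replicate 4 was higher, at 6.88 against 6.56 CPM. Dtx3l, the ligase that pairs with Parp9, had ratios of 1.14 and 1.29. Sp100, a nuclear body protein, had ratios of 1.22 and 1.32. Parp9 and Dtx3l overlap by 458 exonic bases on opposite strands.

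All 3 interferon-induced GTPases were highest in the 2 libraries. Igtp, a GTPase of the defence against intracellular parasites, measured 5.58 CPM in WT replicate 2 and 5.92 in cKO replicate 2 and between 2.99 and 4.27 in the other 10. It shares 162 exonic bases with Irgm2 on the same strand, which measured 5.48 and 6.18 CPM in these 2 libraries, and reads of the pair could be shared. Gbp3 had ratios of 1.36 and 1.64 and Gbp2 of 1.398 and 1.31. Of the remaining induced genes, Lgals3bp, a secreted galectin-binding glycoprotein, measured 16.9 and 21.5 CPM against at most 14.1 and 14.3 in the other libraries of each genotype. Ifi27 had ratios of 1.21 and 1.38, and Ifi35 of 1.245 and 1.31.

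Xaf1 was high in cKO replicate 2 only. It measured 20.8 CPM there against at most 10.8 in the other cKO libraries, a ratio of 2.00. In WT replicate 2 it measured 4.57 CPM, a ratio of 1.10, and WT replicate 6 was the highest WT library.

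Of the 7 antigen presentation genes 4 were highest in the 2 libraries, and their median ratios were 1.19 and 1.17. B2m measured 78.5 CPM in WT replicate 2 and 73.0 in cKO replicate 2, and between 62.1 and 66.8 in the other 10 libraries. H2-K1, a classical class I heavy chain, measured 34.2 and 33.3 CPM against at most 28.6 and 29.3. H2-D1, the other heavy chain, was nearly flat, with ratios of 1.06 and 1.01. Reads of the class I heavy chain genes can be split between near-identical copies, so the difference between H2-K1 and H2-D1 is uncertain. Tap1, which carries peptides into the endoplasmic reticulum, had ratios of 1.28 and 1.23, and its partner Tapbp of 1.07 and 1.12. Psmb8, an immunoproteasome subunit, was high in cKO replicate 2 only, at 3.38 CPM against at most 1.90 in the other cKO libraries, with a ratio of 1.05 in WT replicate 2. Psmb9 was highest in WT replicate 2 at 1.54 CPM, and cKO replicate 3 at 1.42 lay above cKO replicate 2 at 1.11.

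**Figure D5:**
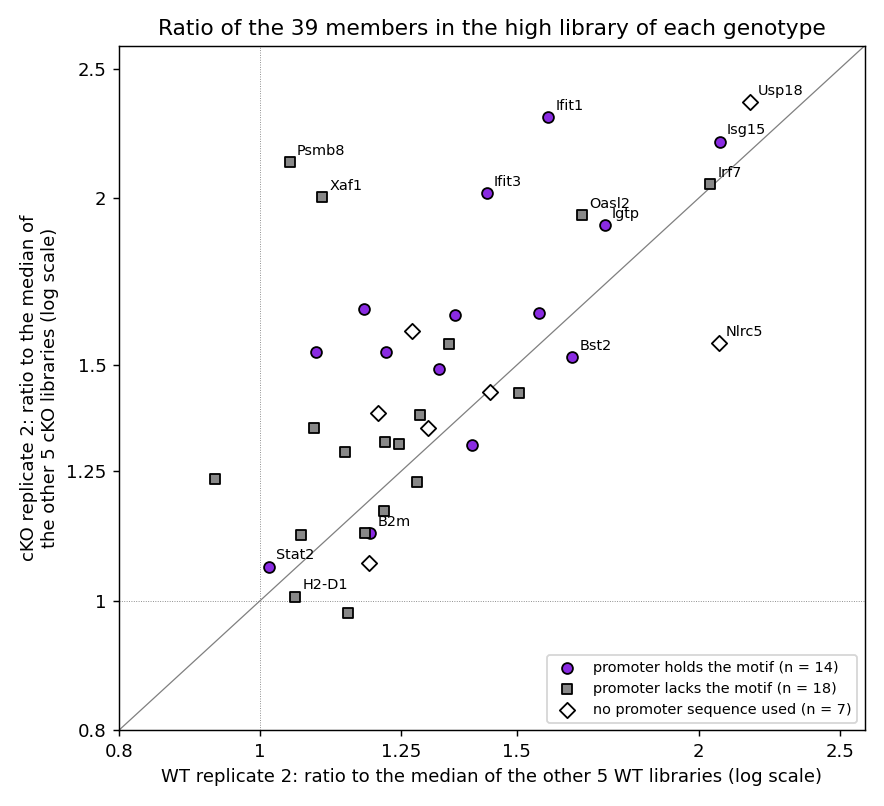
Ratio of WT replicate 2 (horizontal axis) and of cKO replicate 2 (vertical axis) to the median of the other 5 libraries of the same genotype, both on log scales, 1 point per member, marked by whether its promoter window holds the response element motif. Usp18, Isg15 and Irf7 lie above 2 on both axes, Psmb8 and Xaf1 only on the vertical axis, and H2-D1 and Stat2 near 1 on both.

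Promoters are shown because the complex that holds Stat2 and Irf9 acts through a short sequence in them, whose letters can be set beside the pattern across libraries. Promoter windows of 300 bases, from 250 before the gene start to 50 after it, were taken from RefSeq (build GRCm38.p6) for 32 of the 39 members, and 7 members (Ifi27, Dhx58, Rtp4, Usp18, Parp14, Parp9 and Nlrc5) had no entry. The core of the response element was searched on both strands as GAAA and GAAA with any 2 bases between them. It occurred in 15 of the 39 windows of the members (38.5%, several genes having 2 windows) and in 3.44% of all 32851 windows of the same length. Per gene it was found for 14 of 32 members. The members with the motif that had the largest spread within genotypes follow, 5′ to 3′ on the gene's strand, with each match in capitals. A match describes the letters and is not evidence of binding.
Isg15: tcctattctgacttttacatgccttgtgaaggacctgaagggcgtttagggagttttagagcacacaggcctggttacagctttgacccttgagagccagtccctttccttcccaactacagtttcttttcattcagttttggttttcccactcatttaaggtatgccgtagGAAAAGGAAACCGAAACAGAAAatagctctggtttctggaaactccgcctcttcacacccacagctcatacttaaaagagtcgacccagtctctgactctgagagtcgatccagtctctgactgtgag
Ifit1: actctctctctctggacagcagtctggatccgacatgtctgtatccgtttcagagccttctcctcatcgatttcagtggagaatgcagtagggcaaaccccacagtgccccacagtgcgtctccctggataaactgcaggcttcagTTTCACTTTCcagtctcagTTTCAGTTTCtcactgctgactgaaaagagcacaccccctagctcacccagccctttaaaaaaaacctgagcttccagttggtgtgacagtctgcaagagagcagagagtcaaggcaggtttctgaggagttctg
Ifit3: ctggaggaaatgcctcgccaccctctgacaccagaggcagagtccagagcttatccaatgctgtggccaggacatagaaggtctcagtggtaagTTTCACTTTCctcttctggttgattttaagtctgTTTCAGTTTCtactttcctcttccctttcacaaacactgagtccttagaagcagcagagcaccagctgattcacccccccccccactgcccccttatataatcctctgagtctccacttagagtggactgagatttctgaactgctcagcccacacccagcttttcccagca
Igtp: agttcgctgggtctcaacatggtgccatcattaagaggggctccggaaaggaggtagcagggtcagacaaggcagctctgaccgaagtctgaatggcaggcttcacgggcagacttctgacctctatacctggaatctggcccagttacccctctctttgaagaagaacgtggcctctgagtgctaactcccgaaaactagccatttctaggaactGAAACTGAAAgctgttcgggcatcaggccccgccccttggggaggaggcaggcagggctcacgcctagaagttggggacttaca
Bst2: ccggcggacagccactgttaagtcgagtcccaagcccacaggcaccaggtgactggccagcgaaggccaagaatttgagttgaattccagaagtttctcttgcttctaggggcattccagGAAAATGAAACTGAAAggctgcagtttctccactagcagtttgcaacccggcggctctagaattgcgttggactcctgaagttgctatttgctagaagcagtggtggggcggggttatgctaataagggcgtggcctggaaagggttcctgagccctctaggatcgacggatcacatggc
Rsad2: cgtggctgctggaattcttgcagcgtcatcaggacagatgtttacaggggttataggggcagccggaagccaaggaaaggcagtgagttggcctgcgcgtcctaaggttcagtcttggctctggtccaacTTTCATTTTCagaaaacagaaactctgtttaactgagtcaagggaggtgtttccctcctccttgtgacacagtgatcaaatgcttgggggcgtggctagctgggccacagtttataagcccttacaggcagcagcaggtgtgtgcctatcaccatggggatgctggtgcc
Gbp3: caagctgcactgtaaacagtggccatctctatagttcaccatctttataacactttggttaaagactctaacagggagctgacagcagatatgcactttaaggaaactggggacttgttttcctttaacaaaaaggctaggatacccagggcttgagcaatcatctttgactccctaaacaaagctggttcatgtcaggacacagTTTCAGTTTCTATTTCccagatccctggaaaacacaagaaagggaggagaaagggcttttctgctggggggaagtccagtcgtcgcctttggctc
Ddx58: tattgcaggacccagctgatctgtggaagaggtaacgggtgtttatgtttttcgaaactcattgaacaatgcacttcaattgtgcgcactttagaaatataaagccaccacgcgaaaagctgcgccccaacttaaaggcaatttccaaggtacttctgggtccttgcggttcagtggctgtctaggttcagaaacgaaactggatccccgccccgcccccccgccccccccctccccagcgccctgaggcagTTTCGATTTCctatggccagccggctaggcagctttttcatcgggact

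Isg15 (chr4:156200769-156201068, minus strand) held 3 overlapping matches, which begin 78, 72 and 66 bases before the gene start. Ifit1 (chr19:34640639-34640938, plus strand) held 2, at 104 and 85 bases, and Ifit3 (chr19:34583279-34583578, plus strand) 2, at 156 and 122 bases, with the same letters in the same order, TTTCACTTTC and TTTCAGTTTC. Bst2 (chr8:71537423-71537722, minus strand) and Gbp3 (chr3:142559794-142560093, plus strand) held 2 overlapping matches each. Igtp (chr11:58199306-58199605, plus strand) and Rsad2 (chr12:26456403-26456702, minus strand) held 1 each. The single match of Ddx58 (chr4:40239776-40240075, minus strand) lies just past the gene start.

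A second motif, TTCNNNGAA, the core of the element that responds to type II interferon, was found in 7 of the 39 windows (17.9%) and in 8.3% of all windows. Members with the response element had a median ratio of 1.59 in cKO replicate 2 and 1.38 in WT replicate 2. The 18 members whose windows lacked it had medians of 1.31 and 1.199. The ranges overlapped, from 1.06 to 2.30 with the motif and from 0.979 to 2.13 without it in cKO replicate 2. Xaf1, Irf7 and Oasl2 had no match in this window.

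The members varied more within genotypes than most genes. The SD of the log2 level between libraries of one genotype had a median of 0.22 over the members and 0.07 over all tested genes. Members were less abundant, at a median of 5.80 CPM against 24.9. The SD expected from counting alone had a median of 0.10 over the members, and 31 of 39 members exceeded 1.5 times their own. The same count was not made over all tested genes, so it does not set the members apart. The spread includes WT replicate 2 and cKO replicate 2, so it is not a trait separate from their high levels. With both left out, the median SE of the log2 fold change was 0.094 over the members, against 0.118 with all libraries. Over all tested genes it was 0.046 against 0.043.

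The median over the members depended on these libraries. Their median log2 fold change of 0.05 was −0.04 without cKO replicate 2, 0.10 without WT replicate 2 and 0.01 without both. Without both, in a fit added after the data were seen, 2 members were called higher, Xaf1 (log2 fold change 0.91, SE 0.18, edgeR adjusted p = 0.00927) and Irf9 (0.21, SE 0.05, adjusted p = 0.022), and the other 37 had an adjusted p of at least 0.448. In that fit 1.96% of 15515 tested genes were called in either direction. Both libraries were chosen from the members' own values, so the calls of this fit are a description and not a separate test. WT replicate 2 and cKO replicate 2 each held the highest Irf9 level of their genotype, so leaving both out lowers both means of Irf9 by construction.

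Other genes of the pathway, from further lists, showed 1 call. Among 60 tested interferon-induced genes outside the set, Parp12, an antiviral ADP-ribosyltransferase, fell by 13.4%, with 22.6 ± 1.01 CPM in the WT and 19.6 ± 1.12 in the cKO libraries (SD over 6 of each, log2 fold change −0.21 with SE 0.04, edgeR adjusted p = 0.00965), and 0 genes were called higher, while 5 had an unadjusted p under 0.05, which 14.2% of all tested genes had. Parp12 lost its call with surrogate variables (log2 fold change −0.22, SE 0.06, edgeR adjusted p = 0.123). The list's median log2 fold change was 0.04. WT replicate 2 and cKO replicate 2 were the 2 highest libraries for 24 of these 60 genes (40%), against 2.7% of all tested genes. The other pathway lists had few such genes, with 1 of 15 receptors, kinases and factors, 1 of 15 sensing genes, 2 of 14 further class I genes, 1 of 9 class II genes and 0 of 9 inhibitors.

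Genes upstream of the response are the receptors, their kinases and the sensors. Of 15 tested receptors, kinases and factors, 0 were called (2 with an unadjusted p under 0.05 by edgeR, against 14.2% of all tested genes). The interferon receptor chains Ifngr2 and Ifnar2 had log2 fold changes of −0.08 (SE 0.03, edgeR adjusted p = 0.301) and −0.10 (SE 0.04, adjusted p = 0.343). Of 15 nucleic acid sensing genes 0 were called and 0 had an unadjusted p under 0.05 by edgeR, with Tbk1, the kinase that activates Irf3, at −0.05 (SE 0.03) and the RNA-editing gene Adar at 0.04 (SE 0.03). Of 14 further class I genes 0 were called and 1 had an unadjusted p under 0.05 by edgeR, the peptide transporter Tap2 (log2 fold change 0.14, SE 0.05, adjusted p = 0.209). The chaperone Calr in the same list had a log2 fold change of 0.07 (SE 0.04).

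Of 9 tested class II genes and 9 inhibitors 0 were called and 0 had an unadjusted p under 0.05 by edgeR. H2-DMa and Ctss, which prepare class II molecules for peptide loading, had log2 fold changes of 0.11 (SE 0.08) and 0.08 (SE 0.06). The phosphatases Ptpn11 and Ptpn6 had 0.04 (SE 0.02) and 0.21 (SE 0.12). Over all these lists DESeq2 also called 0 genes higher and 1 lower. Of the interferon genes themselves, 10 ligands, 0 were found by symbol in the deposited count table, so they were not analysed here.

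Markers of cells that could contribute these transcripts were summed by library. The 12 microglia markers together measured 184 CPM in WT replicate 2 against 170 to 181 in the other WT libraries, and 210 in cKO replicate 2 against 180 to 196 in the other cKO libraries. These are ratios of 1.05 and 1.12 to the medians of the other libraries. The 12 endothelial markers measured 341 CPM in WT replicate 2, inside the range of 331 to 354 of the other WT libraries, and 382 in cKO replicate 2 against 334 to 368. The 10 T and NK cell markers in the table summed to 0.77 and 1.11 CPM in the 2 libraries. In the others of each genotype they summed to at most 0.79 and 1.05 CPM. Of these markers Cd8b1 had 0 counts in 7 of 12 libraries, while Cd4 and Lck had counts in every library. Choroid plexus markers summed to 215 CPM in WT replicate 2 against 284 to 655 in the other WT libraries, and to 178 in cKO replicate 2, inside the wide range of 155 to 1046 of the other cKO libraries. The 8 oligodendrocyte markers summed to 3993 CPM in WT replicate 2 against 3674 to 3934 in the other WT libraries, and to 3949 in cKO replicate 2 against 3539 to 3899 in the other cKO libraries. The class II genes summed to 53.3 and 55.9 CPM, against at most 52.6 and 52.0 in the other libraries of each genotype. The part of these cells in the shared pattern was not tested.

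Between genotypes the summed microglia level was 170 to 184 CPM in WT and 180 to 210 in cKO, and 2 of the 12 markers were called higher in cKO, Cx3cr1 and Csf1r (edgeR adjusted p = 0.0331 and 0.0352), against 1.27% of all tested genes. All 12 microglia markers had a positive log2 fold change, and 5 had an unadjusted p under 0.05. All 12 endothelial markers also had a positive log2 fold change, with a median of 0.07, 0 calls and 0 with an unadjusted p under 0.05 by edgeR. Whether these markers have a part in the Xaf1 or Irf9 difference was not tested.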

How the data were processed

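The authors deposited unnormalised counts of reads by gene symbol for 12 libraries, per the file headers. The submitters' processing notes name STAR, DESeq2 and mm10 and no version of either tool. How reads were assigned to genes (tool, strand, annotation) is not given in the sources used here. Per the labels' protocols, libraries came from a stranded mRNA kit and were multiplexed together over the same lanes. A second table deposited by the authors compares the genotypes and holds, per the file headers, a mean signal, a log2 fold change, its standard error, a test score and a raw and an adjusted p-value. The 400 genes it shares with the calls made here all had the same sign. All 12 count columns matched a sample, and 0 columns were left unmatched.

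Counts were filtered with filterByExpr, scaled by TMM and tested between genotypes over 15467 genes with the quasi-likelihood test of edgeR 4.0.16 in R 4.3.3, with Benjamini-Hochberg adjustment at 0.05 and no covariate. Replicate numbers follow the order of deposit. Deviations by library used log2(CPM + 0.5). Alternatives were DESeq2 1.42.0, upper-quartile scaling, no filter, thinned counts, surrogate variables (sva 3.50.0) and leaving out libraries. The test was also run on simulated counts, drawn independently for each gene and without a rise shared by a set of genes within a library. Its outcome is not reported here. Gene positions and exon lengths came from GENCODE M21 (mm10), which matched all 39 members by symbol. The members and lists were chosen with earlier results of these data known. All members may be named; of the other pathway lists, up to 4 called genes or otherwise the 2 with the smallest p and a mean of at least 1 CPM.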

Additional observations from a re-analysis of the deposited data

Results flagged for a closer look

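For each member and each genotype, the gap between the highest or lowest library and its neighbour was divided by the range of the 6 libraries, and values over Dixon's 95% critical value for 6 libraries were noted. Chance gives about 5% of groups such a value, and 6.07% of the groups of all tested genes had one. Of 78 groups of the members 28 passed (35.9%), 18 of them through cKO replicate 2, 9 through WT replicate 2 and 1 through WT replicate 6, each as the highest library. Members measured in the same libraries are not independent, and they were chosen with earlier results of these data known, so these counts carry no test.

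In cKO replicate 2 the share of the range taken by the gap was 0.845 for Ifit3, 0.844 for Irf7, 0.841 for Trim25, 0.840 for Ifit1, 0.817 for Xaf1 and 0.791 for Parp14. It was 0.769 for Usp18, 0.768 for Psmb8, 0.732 for Rsad2, 0.718 for Ifih1, 0.708 for Sp100 and 0.705 for Lgals3bp. It was 0.678 for Oasl2, 0.673 for B2m, 0.666 for Parp9, 0.647 for Rtp4, 0.638 for H2-K1 and 0.626 for Ddx58.

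In WT replicate 2 the share was 0.862 for Oasl2, 0.831 for Irf9, 0.770 for Parp9, 0.768 for Igtp and 0.713 for B2m. It was 0.693 for Gbp3, 0.683 for Bst2, 0.649 for Usp18 and 0.640 for Sp100. Oasl2, Usp18, Parp9, B2m and Sp100 therefore stood apart in both genotypes. In WT replicate 6 the share was 0.706 for Xaf1, at 8.57 CPM.

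Of the other genes named, the protease gene Ctss stood apart in WT replicate 2 (share 0.657, 37.0 CPM) and Adar as lowest in WT replicate 5 (0.829, 203 CPM).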

How the results depend on the processing

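Of all tested genes 409 were called; the count was 112 with surrogate variables, and leaving out each library gave 272 (without WT replicate 3) to 459. The number of members called higher, 1, was 2 in DESeq2, 0 with surrogate variables and 1 to 2 when a library was left out. It was 2 without both WT replicate 2 and cKO replicate 2, which were chosen from the members' own values. Irf9 was the second member in each case; with surrogate variables Xaf1 had a log2 fold change of 0.78 (edgeR adjusted p = 0.25). The number of members called lower was 0 under every alternative run. The pathway call lower in cKO, Parp12, numbered 1, and 0 with surrogate variables. The cause of these losses was not tested. The median log2 fold change of the members ran from −0.04 to 0.10 over the fits that left out a library and was −0.02 with surrogate variables. The median deviation in cKO replicate 2 was 0.43, and 0.33 with a pseudocount of 2, chosen after seeing the data, which shrinks low genes by construction. Over single genes of the lists no call changed direction. No paired analysis was possible because the labels give the genotypes no shared replicate numbers. Depth limits the rarest members: Isg15 had as few as 18 counts and Psmb9 22.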

Other observations

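Outside the 39 members, other genes were also highest in WT replicate 2 and cKO replicate 2. Of 13821 tested genes with a mean of at least 1 CPM, 14 had these as their 2 highest libraries with a ratio over 1.5 to the median of the other libraries of the genotype in both. Of the 14, 9 were members, and Ifi44 and Iigp1 were on the list of other interferon-induced genes. The remaining 3, named after their values were seen, were Siglec1, Prokr2 and Cd109. Siglec1 encodes a sialic acid receptor of macrophages that interferon induces, and measured 1.43 CPM in WT replicate 2 and 2.22 in cKO replicate 2, against medians of 0.856 and 0.926 in the other libraries. Prokr2, a prokineticin receptor, measured 2.44 and 1.71 CPM against medians of 1.18 and 0.527, and Cd109, a surface protein of the alpha-2-macroglobulin family, 2.55 and 2.15 against medians of 1.51 and 1.36. The complement gene C4b, also named after its values were seen, lay below that threshold with ratios of 1.32 and 1.45. Genes on no list, such as Hist1h4i (1.47 and 1.41) and Tstd1 (1.35 and 1.38), ranked above C4b by the smaller ratio.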
